A study of Mus musculus with 9 samples.

Results

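The 9 genes described here carry vitamin A and its derivatives, the retinoids, into the eye and through the visual cycle. They were taken by symbol from the platform annotation: Rbp3, Rdh12, Rdh8, Rdh11, Rlbp1, Rdh5, Stra6, Rbp4 and Ttr. Each had 1 probe set, so that all 9 were among the 24259 genes tested. RNA of whole mouse retina, taken on postnatal day 8, was hybridised to Affymetrix whole-transcript arrays, in 3 groups of 3 arrays: wild type (WT), Rb KO and Rb/p107 DKO (DKO below). All animals were of the mixed strain C57Bl/6x129SvJ. Rb and p107 are pocket proteins that restrain the cell cycle. The labels name no Cre driver and do not say in which retinal cells Rb1 was deleted, and Rbl1, the gene of p107, was not analysed here. The arrays are described as biological replicates, and the labels do not say whether retinas were pooled.

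When a photon is absorbed, the visual pigment's chromophore turns from a cis to an all-trans form of retinal, which leaves the opsin and is reduced to all-trans-retinol inside the photoreceptor. The retinol crosses the extracellular space to the pigment epithelium, where it is turned back into cis retinal and returned, and Muller glia serve a further route for cones. Retinol from blood enters the pigment epithelium through a receptor that takes it from its plasma carrier. A whole retina therefore samples these genes from photoreceptors, glia and any attached pigment epithelium, and in such bulk RNA fewer cells of a type cannot be told from less RNA per cell.

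Values below are log2 intensities, and a reading is called above background when it exceeds the level under which 95% of that array's 5222 negative control probe sets lie, 7.94 to 8.50. Rbp3, Rdh12, Rdh11 and Rlbp1 were above it in all 9 arrays, Rdh8 in 8 of 9 and Ttr in the 3 WT arrays alone. Rdh5 and Stra6 were above it in WT replicate 2 only, and Rbp4 in no array. DKO replicate 2 stood apart from the other arrays: its Xist reading was 5.47 against 11.44 to 12.15, and its lens marker mean was 8.77 against 6.89 to 7.58. Its mean of 3 Y-linked genes was 8.62 against 4.73 to 4.92, so it read as male and the other arrays as female. The lens marker means of DKO replicates 1 and 3, 7.58 and 7.46, also lay above those of every WT and Rb KO array, 6.89 to 7.30. Rb1, the gene targeted in both mutants, lay at 10.005, 10.19 and 10.47 in WT, at 9.85, 10.02 and 9.86 in Rb KO and at 9.74, 10.001 and 9.85 in DKO, with log2 fold changes against WT of -0.31 (adjusted p = 0.0793 in limma) and -0.36 (adjusted p = 0.0423). The labels do not say which part of Rb1 was removed, and its probe set can read the part that remains, so these readings do not check the genotypes. Without DKO replicate 2, 7 members were still called lower in DKO and 6 in Rb KO. Between 27.2% and 36.4% of genes were above background in an array, and the area under the curve that parts positive from negative controls, called control separation below, was 0.927 to 0.936 in the mutants and 0.932 to 0.954 in WT. The small number of arrays limits the precision of every value.

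Most of the 9 members were called lower in each mutant than in WT. In Rb KO against WT 7 of 9 members fell and none rose (limma, adjusted p under 0.05 over all genes), beside 14.3% of all genes that fell and 10.2% that rose (24.4% in either direction). In DKO against WT 7 of 9 fell and none rose, beside 17.1% and 12.2% of all genes (29.3% in either direction). The median log2 fold change of the members was -0.73 in Rb KO and -0.94 in DKO, beside -0.05 and -0.06 over all genes. At an unadjusted p under 0.05 in limma, none of the members was higher in either comparison. Both comparisons use the same 3 WT arrays. Rdh11 and Rbp4 were the members that did not pass in either. All arrays of Rb KO lay below all of WT for 7 of 9 members, beside 21.5% of all genes, and those of DKO for 8 of 9, beside 26.5%. Both counts take in Rdh5 and Stra6, which were above background in WT replicate 2 only. The DKO count also takes in Rbp4, not above background in any array, whose highest DKO reading was 5.812 and lowest WT reading 5.813. A difference among the 3 groups was called by limma's F test for 7 of 9, beside 28.7% of all genes.

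**Figure D1:**
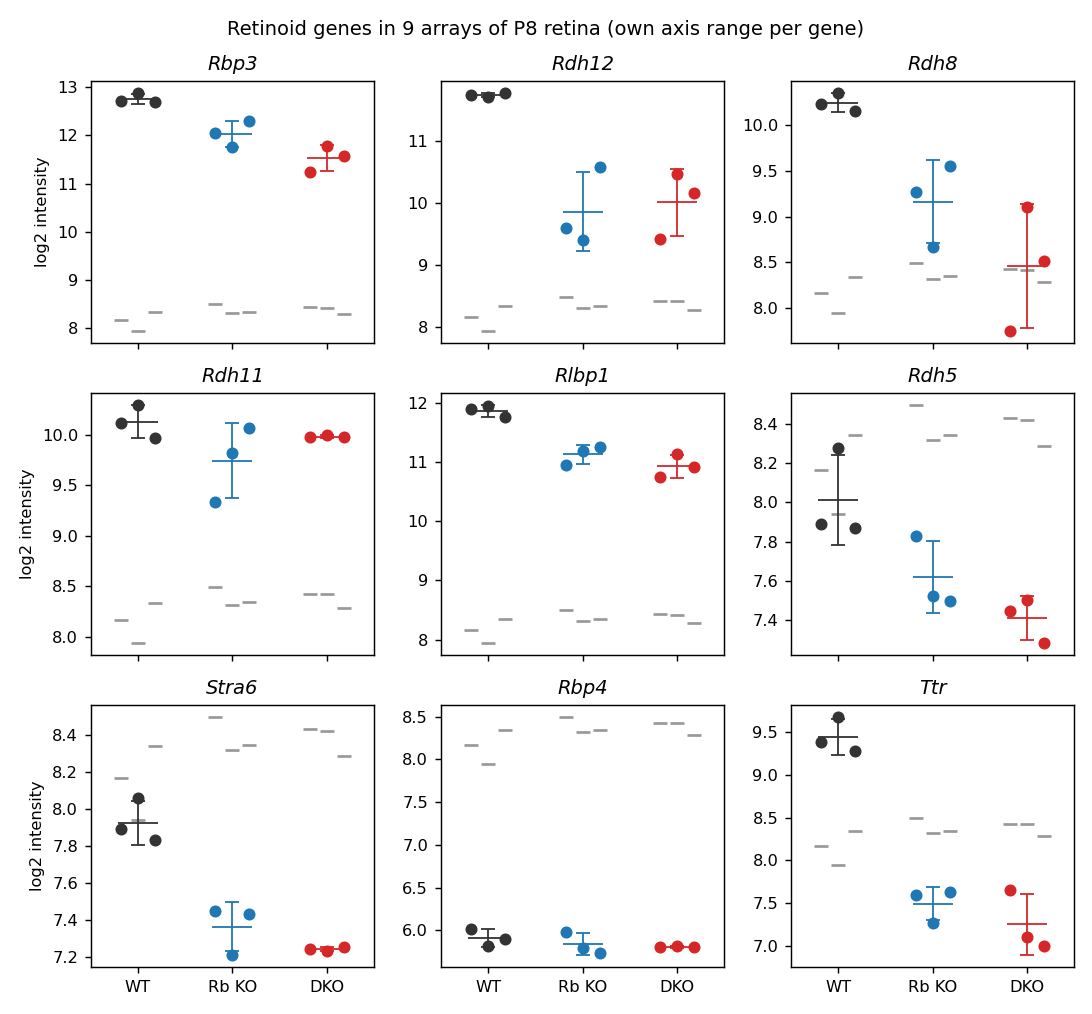
Log2 intensity (y axis, own range for each gene) of the 9 members in the 3 arrays of each group (points, replicates 1 to 3 from left to right), with group mean and SD (bars); grey dashes mark the 95th percentile of the negative controls of each array. Rbp3, Rdh12, Rdh8 and Rlbp1 lie lower in all 6 mutant arrays than in any WT array, while Rdh5, Stra6 and Rbp4 lie near or under the grey dashes.

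The photoreceptor members Rbp3, Rdh12 and Rdh8 fell in both mutants, and Rlbp1, Ttr, Stra6 and Rdh5 were also called lower in both. Shown for the photoreceptor members are the 250 bases before the RefSeq start site (GRCm38.p6) of each. These come from chr14:33953753-33954002 (plus strand) for Rbp3, chr12:79208663-79208912 (plus strand) for Rdh12 and chr9:20818244-20818493 (plus strand) for Rdh8. Capitals mark matches, on either strand, to TAATCC, a motif of the photoreceptor factor CRX, or to TGCTGA, a core shared by sites of the rod factor NRL.
Rbp3: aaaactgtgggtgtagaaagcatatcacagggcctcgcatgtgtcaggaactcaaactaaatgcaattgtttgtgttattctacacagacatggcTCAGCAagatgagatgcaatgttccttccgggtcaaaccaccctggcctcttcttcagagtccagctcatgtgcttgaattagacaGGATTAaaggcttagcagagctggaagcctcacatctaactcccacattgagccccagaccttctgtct
Rdh12: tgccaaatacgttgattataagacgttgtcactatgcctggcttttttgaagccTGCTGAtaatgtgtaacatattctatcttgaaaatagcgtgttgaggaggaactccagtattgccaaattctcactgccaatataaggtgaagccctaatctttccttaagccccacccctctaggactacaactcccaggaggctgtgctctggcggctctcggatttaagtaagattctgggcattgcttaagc
Rdh8: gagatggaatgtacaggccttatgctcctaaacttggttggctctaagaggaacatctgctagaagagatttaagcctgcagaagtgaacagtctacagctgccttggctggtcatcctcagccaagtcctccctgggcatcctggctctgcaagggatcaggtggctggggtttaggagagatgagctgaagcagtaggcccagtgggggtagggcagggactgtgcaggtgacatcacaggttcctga

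Rbp3 held the CRX motif on the minus strand at 69 to 64 bases before the start and the NRL core on the minus strand at 155 to 150 bases before it, with no overlap. Rdh12 held the NRL core at 196 to 191 bases before its start. These letters were not in the Rdh8 window. Of 32851 mouse promoter windows of the same length, 6.25% held the CRX motif, 16.1% the NRL core and 0.962% both. The matches are a description of letters and not of bound sites. Of the other members, a start site of Rlbp1 and a start site of Stra6 had a match to the NRL core within 250 bases, and no promoter of Ttr was used here.

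Rbp3 encodes the interphotoreceptor retinoid-binding protein, which photoreceptors secrete and which ferries retinoids between them, the pigment epithelium and Muller glia. Its probe set (TC1400000365.mm.1) read 12.71, 12.88 and 12.70 for WT, 12.05, 11.76 and 12.30 for Rb KO and 11.24, 11.77 and 11.58 for DKO. The 3 WT arrays were highest, the Rb KO arrays lay between, and DKO replicate 2 overlapped with Rb KO replicate 2. Rbp3 fell by 0.73 in Rb KO (SE 0.152, 95% interval -1.06 to -0.39, adjusted p = 0.00556), to 60.4% of the WT intensity. In DKO it fell by 1.23 (SE 0.152, 95% interval -1.57 to -0.90, adjusted p = 1.69e-04), to 42.5%. Its level was lower in DKO than in Rb KO by a log2 difference of -0.51, which did not pass (95% interval -0.84 to -0.17, adjusted p = 0.132).

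Rdh12 encodes a retinol dehydrogenase of the photoreceptor inner segment that reduces retinal and clears toxic aldehydes, and its loss causes early retinal degeneration in people. Its probe set (TC1200000718.mm.1) read 11.75, 11.71 and 11.78 for WT, 9.60, 9.41 and 10.59 for Rb KO and 9.42, 10.47 and 10.17 for DKO. All 6 mutant arrays lay more than 1 log2 unit below every WT array. The mutant arrays were spread far more widely than the WT arrays, with SDs of 0.634 in Rb KO and 0.541 in DKO against 0.0344 in WT. Rdh12 fell by 1.88 in Rb KO (SE 0.301, 3.68-fold lower, adjusted p = 0.00115), and 0.120% of all genes had a lower log2 fold change. In DKO it fell by 1.73 (SE 0.301, 3.31-fold lower, adjusted p = 0.00151). Between the mutants Rdh12 differed by 0.15 (95% interval -0.51 to 0.82, adjusted p = 0.933), and this value turned to -0.07 without DKO replicate 2 and to -0.08 without Rb KO replicate 2.

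Rdh8 encodes the all-trans-retinol dehydrogenase of the photoreceptor outer segment, which takes up the all-trans-retinal that bleached pigment releases. Its probe set (TC0900000180.mm.1) read 10.23, 10.36 and 10.15 for WT, 9.27, 8.67 and 9.55 for Rb KO and 7.75, 9.11 and 8.52 for DKO. WT lay above every mutant array, the mutants overlapped, and DKO replicate 1 was not above background. Rdh8 fell by 1.08 in Rb KO (SE 0.298, 2.12-fold lower, adjusted p = 0.0223). In DKO it fell by 1.79 (SE 0.298, 3.46-fold lower, adjusted p = 0.00113), a change that 0.144% of all genes exceeded in the same direction. Leaving out replicate 1 or 2 of WT, or replicate 1 or 2 of Rb KO, ended the Rb KO call (adjusted p = 0.0505 to 0.0937), as did a covariate for control separation (adjusted p = 0.0925), while the fold change stayed between -1.28 and -0.84 over all alternatives. The difference between DKO and Rb KO was -0.70 (95% interval -1.36 to -0.05, adjusted p = 0.319).

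Rod markers moved with these members. All 16 measured rod markers fell in each mutant against WT, with medians of -1.34 in Rb KO and -1.51 in DKO, and their mean log2 level was 11.51 to 11.56 in WT, 9.54 to 10.37 in Rb KO and 9.48 to 10.36 in DKO. Of 16 rod markers, 16 were above background in every WT array, 13 to 14 in Rb KO and 12 to 14 in DKO. Rb KO replicate 2 was lowest and Rb KO replicate 3 highest in its group for Rbp3, Rdh12, Rdh8 and the rod mean. DKO replicate 1 was lowest and DKO replicate 2 highest in its group for all 4. Of the 7 measured cone markers 5 fell in Rb KO and 7 in DKO, with medians of -1.40 and -1.50. The shares of all genes that fell were 14.3% in Rb KO and 17.1% in DKO. The part of rod and cone content in the lower retinoid genes was not tested.

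**Figure D2:**
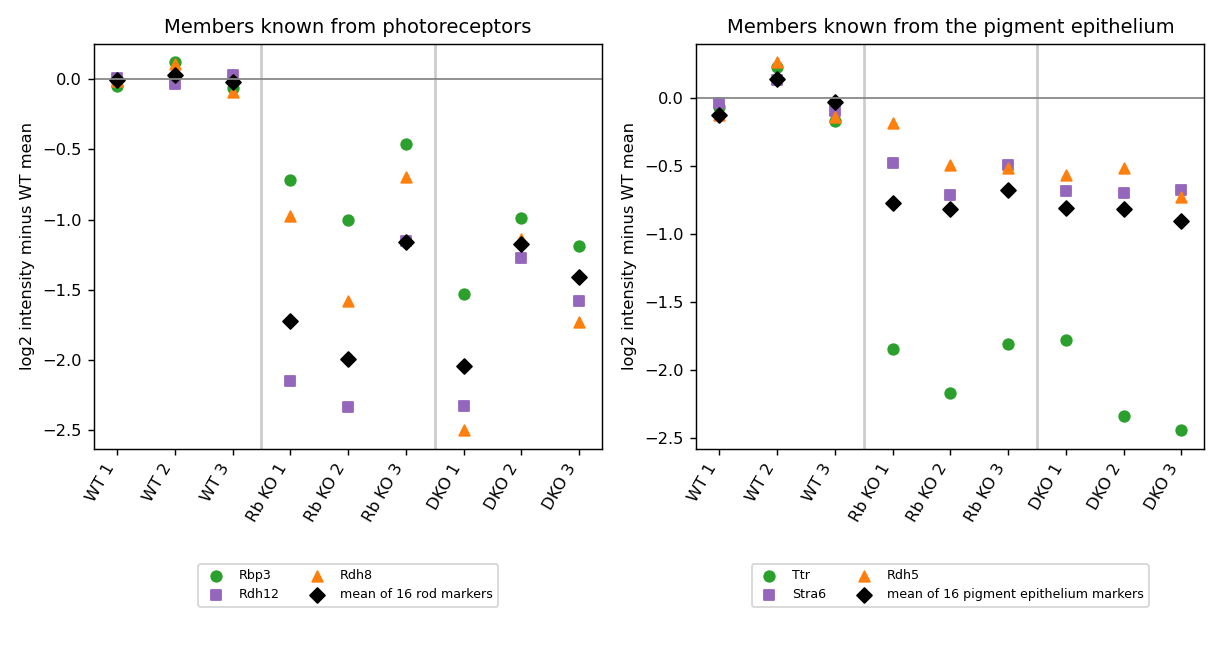
Log2 intensity minus the mean of the 3 WT arrays (y axis) in each of the 9 arrays (x axis). The left panel shows Rbp3, Rdh12, Rdh8 and the mean of 16 rod markers, which are lowest in Rb KO replicate 2 and DKO replicate 1 within their groups; the right panel shows Ttr, Stra6, Rdh5 and the mean of 16 pigment epithelium and melanocyte markers, all under the WT mean in every mutant array.

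Genes with the most similar levels over the arrays were then listed for each photoreceptor member. Among 6326 genes above background in at least 3 arrays, with predicted, microRNA, small nucleolar and olfactory receptor symbols left out, those most like Rdh12 were Rcvrn, Osbp2 and Gucy2f (Pearson r over 9 arrays 0.997, 0.995 and 0.994). Rcvrn encodes recoverin and Gucy2f a photoreceptor guanylate cyclase, and Rcvrn stood at -2.22 in Rb KO and -2.07 in DKO against WT. Most like Rbp3 were Slc1a7, Hs3st3b1 and Pcare (r 0.996, 0.996 and 0.996), and most like Rdh8 were Slc1a7, Pcare and Rbp3 itself (r 0.988, 0.986 and 0.985). Slc1a7 encodes a glutamate transporter of photoreceptors and bipolar cells, and Pcare a protein of the photoreceptor cilium. For Rdh12, r was 0.881 with Rbp3 and 0.885 with Rdh8. These coefficients describe 9 arrays in which WT stands apart, and 626, 608 and 378 genes had an r over 0.9 with Rbp3, Rdh12 and Rdh8. Nrl, the gene of the rod-determining factor, fell by 0.90 in Rb KO and by 1.53 in DKO against WT. It was the 1 rod marker of 16 that passed in DKO against Rb KO (-0.63, adjusted p = 0.0304 in limma), where the median of the 16 was -0.08. Nrl read 8.19, 8.57 and 8.48 in DKO, with replicate 1 not above background, so its DKO sizes use a background reading. Of the 16, 10 were lower in DKO than in Rb KO. At an unadjusted p under 0.05 in limma 2 were lower, Nrl and Rom1 (-0.40), and 3 were higher, beside 5.99% and 7.58% of all genes. The higher ones were Gnat1, Pde6a and Slc24a1, genes of rod phototransduction, at 1.18, 0.93 and 0.90. Their unadjusted p was 0.00917, 0.0225 and 0.0338, and they did not pass (adjusted p = 0.154 to 0.303).

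Rdh11 encodes a broadly expressed retinal reductase of the short-chain dehydrogenase family and is the direct neighbour of Rdh12 on chromosome 12 in the RefSeq annotation, with no gene between them. Its probe set (TC1200001981.mm.1) read 10.12, 10.29 and 9.97 for WT, 9.34, 9.82 and 10.06 for Rb KO and 9.97, 10.00 and 9.97 for DKO. The 3 groups overlapped, and Rb KO replicate 1 was lowest. The log2 fold change against WT was -0.39 in Rb KO (SE 0.155, 95% interval -0.73 to -0.04, adjusted p = 0.0967) and -0.15 in DKO (SE 0.155, 95% interval -0.49 to 0.20, adjusted p = 0.528). The former passed without Rb KO replicate 3 (-0.55, adjusted p = 0.0199) and when only genes above background in at least 3 arrays were tested (adjusted p = 0.0492). It shrank to -0.19 without Rb KO replicate 1 (adjusted p = 0.277) and to -0.17 with the control separation as a covariate (adjusted p = 0.516). The latter turned to 0.11 with the control separation as a covariate (adjusted p = 0.70). The genes most like Rdh11 were Osbpl9, Cxadr and Ndufs4 (r 0.970, 0.967 and 0.965), and its r with Rdh12 was 0.631.

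**Figure D3:**
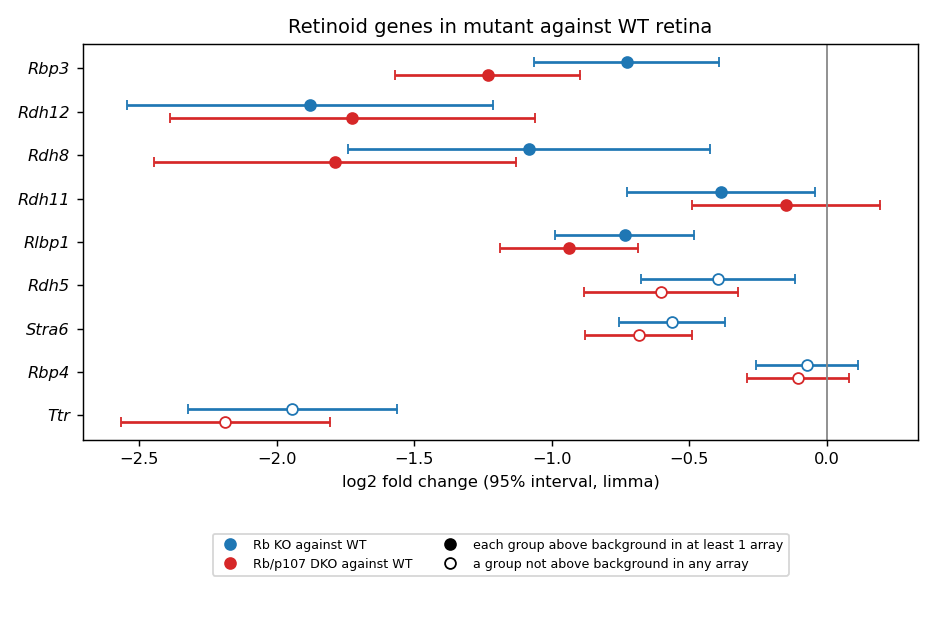
Log2 fold change against WT (x axis) of the 9 members in Rb KO (blue) and DKO (red), with 95% intervals from limma; open points mark comparisons in which a group was not above background in any array. The intervals of Rbp3, Rdh12, Rdh8 and Rlbp1 lie under 0 in both mutants, and that of Rdh11 spans 0 in DKO.

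Rlbp1 encodes CRALBP, the cis-retinal carrier of Muller glia and pigment epithelium. Its probe set (TC0700003556.mm.1) read 11.89, 11.95 and 11.76 for WT, 10.95, 11.19 and 11.26 for Rb KO and 10.74, 11.14 and 10.92 for DKO. WT lay above all mutant arrays, and the mutants overlapped. Rlbp1 fell by 0.73 in Rb KO (SE 0.114, 1.66-fold lower, adjusted p = 9.68e-04) and by 0.94 in DKO (SE 0.114, 1.92-fold lower, adjusted p = 1.55e-04). DKO against Rb KO gave -0.20 (95% interval -0.45 to 0.05, adjusted p = 0.516). Both calls against WT held under every alternative run, with fold changes of -0.80 to -0.64 in Rb KO and -1.04 to -0.82 in DKO.

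Other Muller glia markers moved in both directions. Of 9 measured, 4 fell and 2 rose in Rb KO (median -0.25), and 4 fell and 1 rose in DKO (median -0.02). Of all genes 14.3% fell and 10.2% rose in Rb KO, and 17.1% fell and 12.2% rose in DKO. The glial markers that fell in each mutant were Abca8a (-1.83 and -1.81), Clu, which encodes clusterin (-1.30 and -1.40), Aqp4, the glial water channel (-0.95 and -0.94), and the glutamate transporter gene Slc1a3 (-0.39 and -0.41). The glial factor Sox9, which progenitors also express, rose by 1.13 in Rb KO and 1.33 in DKO, and Hes1, a Notch target, rose by 0.75 in Rb KO and stood at 0.25 in DKO (adjusted p = 0.103), lower than in Rb KO by -0.50 (adjusted p = 0.0340). Aqp4 and Slc1a3 were not above background in any mutant array: the fall of Slc1a3 was at least 1.16-fold in Rb KO and at least 1.17-fold in DKO, and that of Aqp4 has no bound. The mutant means of Abca8a, 8.18 and 8.20, lay under the negative control percentile of every mutant array, so its sizes use background readings. The mean level of the list was 9.58 to 9.78 in WT, 9.30 to 9.41 in Rb KO and 9.24 to 9.48 in DKO, and 8 to 9 of its 9 genes were above background in WT and 6 to 7 in the mutants. The parts of glial content and of attached pigment epithelium in the fall of Rlbp1 were not tested. The genes most like Rlbp1 over the arrays were Tmem106b, Mindy2 and Slc14a1 (r 0.993, 0.991 and 0.990), the last of which encodes a urea transporter. An r over 0.9 with Rlbp1 was shared by 810 genes.

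Ttr encodes transthyretin, the plasma carrier of thyroid hormone and of the retinol-binding protein complex, which the pigment epithelium and the choroid plexus make in large amounts. Its probe set (TC1800000158.mm.1) read 9.38, 9.67 and 9.27 for WT, 7.59, 7.27 and 7.63 for Rb KO and 7.66, 7.10 and 6.997 for DKO. The WT arrays were all above background and the 6 mutant arrays were not. Against WT the Ttr fall passed in each mutant, with an adjusted p of 2.39e-05 for Rb KO and 6.92e-06 for DKO. Set against the negative control percentile in the mutants, which leaves out the spread between arrays, the fall was at least 2.08-fold in Rb KO, and in DKO at least 2.09-fold. The fitted differences of -1.94 and -2.19 use background readings and are no measured sizes, and both calls held under every alternative run. The genes most like Ttr were Kctd21, the pigment cell gene Pmel and Snx25 (r 0.981, 0.981 and 0.976). Ttr, Kctd21 and Pmel were above background in WT arrays alone, so their r sets WT against background readings. In all, 523 genes had an r over 0.9 with Ttr.

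Stra6 encodes the membrane receptor that takes retinol from its plasma carrier into the pigment epithelium. Its probe set (TC0900000725.mm.1) read 7.89, 8.06 and 7.83 for WT, 7.45, 7.21 and 7.43 for Rb KO and 7.25, 7.23 and 7.25 for DKO. WT lay above all mutant arrays, but only WT replicate 2 was above background. Stra6 was called lower in Rb KO (-0.56, SE 0.0879, adjusted p = 9.98e-04) and in DKO (-0.68, SE 0.0879, adjusted p = 2.19e-04), so a difference was detected while its size was not measured.

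Rdh5 encodes the cis-retinol dehydrogenase of the pigment epithelium, which completes the return to cis retinal. Its probe set (TC1000003227.mm.1) read 7.89, 8.28 and 7.87 for WT, 7.83, 7.52 and 7.50 for Rb KO and 7.45, 7.50 and 7.28 for DKO. Again WT replicate 2 alone was above background, and Rb KO replicate 1 came close to the lowest WT array. Rdh5 was called lower in Rb KO (-0.40, SE 0.127, adjusted p = 0.0440) and DKO (-0.60, SE 0.127, adjusted p = 0.00469), with no size measured. Leaving out replicate 1 or 2 of WT, replicate 2 or 3 of Rb KO, or any of the 3 DKO arrays ended the Rb KO call (adjusted p = 0.0506 to 0.144), with a log2 fold change of -0.26 without WT replicate 2. It also ended with only the 2 groups fitted (adjusted p = 0.0730), in the fit to all probe sets (adjusted p = 0.0778) and with the control separation as a covariate (adjusted p = 0.193), which ended the DKO call as well (adjusted p = 0.0619).

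Rbp4 encodes the plasma retinol-binding protein, which the liver makes in bulk and the pigment epithelium makes locally. Its probe set (TC1900001464.mm.1) read between 5.74 and 6.02 in all 9 arrays, close to the 5.52 to 5.83 at which the median negative control read. No difference was detectable at this signal: the log2 fold change against WT was -0.07 for Rb KO (adjusted p = 0.603) and -0.10 for DKO (adjusted p = 0.401). Rbp4 was therefore not above background in WT retina either.

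Markers of pigment epithelium and melanocytes, which can enter a retina sample as attached tissue, were lower in the mutants, as were Ttr, Stra6 and Rdh5. Within Rb KO, replicate 3 was highest for the marker mean and Ttr, but replicate 1 for Stra6 and Rdh5. Within DKO, replicate 3 was lowest for the marker mean, Ttr and Rdh5, but highest for Stra6. The mutant readings of Ttr, Stra6 and Rdh5 were not above background. Of 16 measured markers other than the members, of which Rgr is also on the retinoid list below, 12 fell and none rose in Rb KO, and 14 fell and none rose in DKO, with medians of -0.75 and -0.82. Only 6 of the 16 were above background in any array. At an unadjusted p under 0.05 in limma none of the 16 was higher in either mutant. Their mean log2 level was 7.18 to 7.44 in WT, 6.49 to 6.62 in Rb KO and 6.39 to 6.49 in DKO, and 4 to 6 of 16 were above background in WT, 0 to 1 in Rb KO and 0 in DKO. Pmel, a structural protein of pigment granules, read 8.66, 9.14 and 8.89 in WT and 7.21 to 7.56 in the mutants, a fall of at least 1.43-fold in each. The defining markers Tyr, the tyrosinase of melanin synthesis, and Best1, a pigment epithelium channel, were not above background in any array (log2 fold changes of -1.37 and -1.66 for Tyr and 0.00 and -0.15 for Best1), and Rpe65 was not analysed here. Of 8 choroid plexus and ciliary epithelium markers 7 fell in each mutant, with medians of -0.67 and -0.49, and none of the 8 rose in Rb KO while Zic1 rose in DKO. In WT 2 to 4 of these 8 were above background, and 1 to 2 in the mutants. Vessel and fibroblast markers were lower too: 9 of 13 fell in Rb KO and 8 in DKO, with medians of -0.59 and -0.78. Of all genes 14.3% and 17.1% fell. The part of attached tissue in the lower Ttr, Stra6 and Rdh5 readings was not tested.

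Added loss of p107 gave no call among the members. In DKO against Rb KO 0 of 9 passed in limma, beside 2.54% of all genes (1.21% lower and 1.34% higher), and at an unadjusted p under 0.05 it was 2, Rbp3 and Rdh8, both lower, beside 5.99% of all genes that were lower and 7.58% that were higher at that threshold (13.6% together). The median difference was -0.20, beside 0.00 over all genes, and 7 of 9 were lower. For none of the 9 did all DKO arrays lie below all Rb KO arrays, beside 10.9% of all genes. The largest differences, in Rdh8 and Rbp3, have 95% intervals under 0 before adjustment, so similar levels in the mutants were not shown. With 1 array left out the Rdh8 difference ran from -1.03 (without DKO replicate 2) to -0.35 (without DKO replicate 1, the array not above background, adjusted p = 0.788). That of Rbp3 ran from -0.64 (without Rb KO replicate 2) to -0.36 (without DKO replicate 1, adjusted p = 0.424). Their counterpart Rdh12 stood at 0.15, and whether it differed from Rbp3 and Rdh8 in this contrast was not tested.

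Other genes of retinoid metabolism, a list of 44 of which 28 were measured, mostly did not pass. In Rb KO 9 fell, 2 rose and 17 did not pass, with a median of -0.08, beside 14.3% of all genes that fell and 10.2% that rose. In DKO 10 fell, 2 rose and 16 did not pass, with a median of -0.19, beside 17.1% and 12.2%. The DKO falls numbered 5 with the control separation as a covariate. Only 12 of the 28 were above background in any array. Rpe65, Lrat, Abca4, Rdh10 and 12 others were not analysed here.

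Rgr, which encodes a retinal-binding opsin of pigment epithelium and Muller glia, read 9.55, 10.13 and 9.35 for WT, 8.48, 8.35 and 8.55 for Rb KO and 8.13, 8.19 and 7.58 for DKO. It fell by 1.22 in Rb KO (SE 0.198, adjusted p = 0.00128) and at least 2.46-fold in DKO (adjusted p = 1.12e-04), where no array was above background. Dhrs3, a retinal reductase, read 10.09, 10.22 and 10.06 for WT, 8.79, 8.70 and 9.52 for Rb KO and 8.63, 9.21 and 9.14 for DKO. Dhrs3 fell by 1.12 (SE 0.206, adjusted p = 0.00266) and 1.13 (adjusted p = 0.00199) in Rb KO and DKO. Both genes lay below every WT array in all mutant arrays.

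Aldh1a1, which makes retinoic acid, read 10.17, 10.41 and 9.97 for WT, 8.76, 9.27 and 9.37 for Rb KO and 9.32, 9.63 and 9.59 for DKO. It fell by 1.05 in Rb KO (SE 0.163, adjusted p = 9.29e-04) and by 0.67 in DKO (adjusted p = 0.0103), and DKO against Rb KO gave 0.38 (adjusted p = 0.319). Scarb1, a lipoprotein receptor that also takes up carotenoids, fell by 0.55 and 0.82. Rdh14, a dehydrogenase of the same family as the members, fell by 0.45 in Rb KO and at least 1.30-fold in DKO. Dhrs7, also of that family, fell at least 1.47-fold in Rb KO and by 0.56 in DKO. Only 1 of 3 arrays was above background for Rdh14 in Rb KO and for Dhrs7 in DKO, so these sizes use background readings. The DKO calls of Aldh1a1, Rdh14 and Dhrs7 ended with the control separation as a covariate (adjusted p = 0.182, 0.0851 and 0.0642), and the Rb KO call of Rdh14 ended so too (adjusted p = 0.141) and without replicate 1 or 2 of Rb KO (adjusted p = 0.0680 and 0.0687). Rdh13 was called lower in Rb KO (-0.45, adjusted p = 0.00584), where no array was above background, and stood at -0.27 in DKO (adjusted p = 0.0510). Awat2 and Bco2 in both mutants, and Rdh16 and Retsat in DKO, were called lower from readings that were not above background in any array. Of 16 alternatives, 10 ended the call of Bco2 in Rb KO, 10 that of Retsat, 5 that of Rdh16 and 1 that of Bco2 in DKO.

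Crabp1, which encodes a cytosolic retinoic acid-binding protein, rose. It read 9.65, 9.75 and 9.21 for WT, 10.27, 10.15 and 9.82 for Rb KO and 10.85, 10.31 and 10.77 for DKO. The rise was 0.54 in Rb KO (SE 0.177, adjusted p = 0.0461) and 1.11 in DKO (SE 0.177, adjusted p = 8.71e-04), with WT below all mutant arrays. The Rb KO call ended in the fit to all probe sets (adjusted p = 0.0782) and without replicate 1 or 3 of WT, replicate 1 or 2 of Rb KO, or replicate 3 of DKO (0.38 to 0.60, adjusted p = 0.0577 to 0.159), while the DKO call held under all alternatives run. Dhrs4, a peroxisomal reductase, rose by 0.70 in Rb KO (SE 0.0951, adjusted p = 4.04e-04) and by 0.44 in DKO (adjusted p = 0.00539). The retinoic acid receptor genes Rara and Rarb were above background in some arrays of each group and did not pass in either mutant (-0.04 and -0.24 for Rara, -0.01 and 0.20 for Rarb). In DKO against Rb KO 0 of the 28 passed in limma, beside 2.54% of all genes. At an unadjusted p under 0.05 it was 7, 4 lower and 3 higher. Of all genes 5.99% were lower and 7.58% higher at that threshold (13.6% together).

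**Figure D4:**
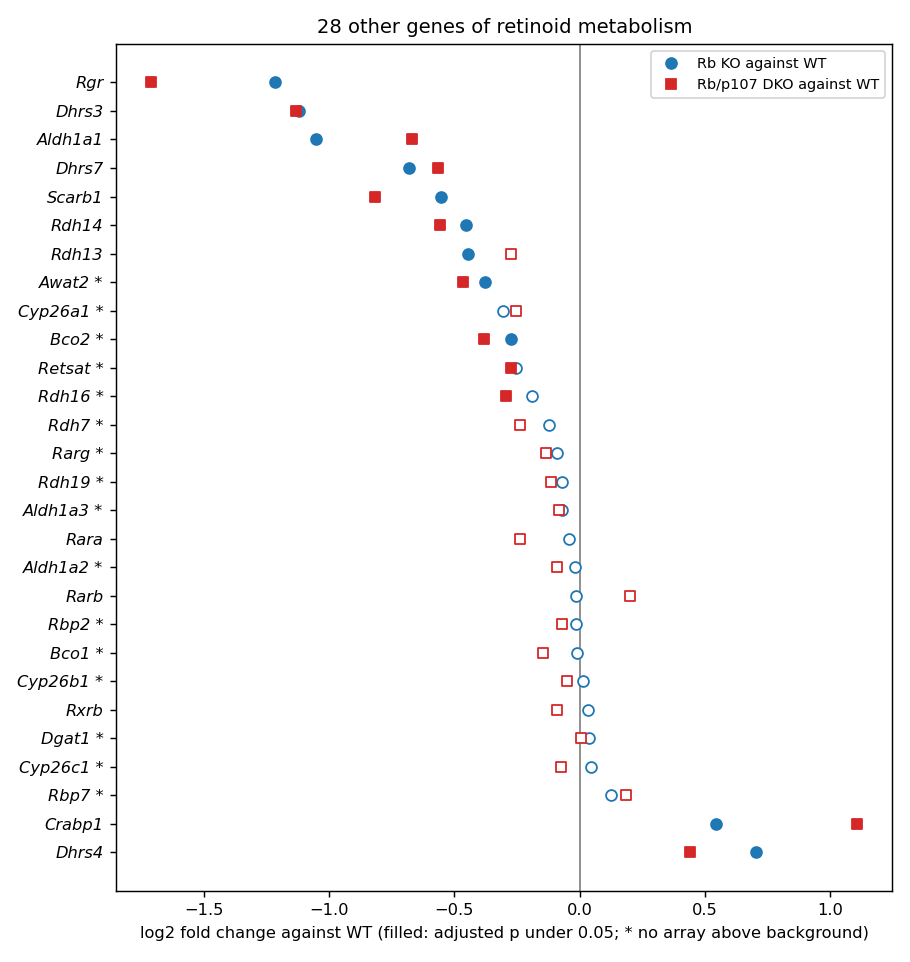
Log2 fold change against WT (x axis) of 28 other genes of retinoid metabolism in Rb KO (blue circles) and DKO (red squares); filled symbols passed at an adjusted p under 0.05, and an asterisk marks genes not above background in any array. Rgr, Dhrs3 and Aldh1a1 lie farthest to the left in Rb KO, Crabp1 and Dhrs4 on the right.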

How the data were processed

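Per the submitters' processing notes, the authors summarised the arrays by robust multi-array averaging (RMA). The deposited values are log2 intensities of 59649 probe sets, of which 52917 were transcript clusters. The software version and annotation build are not given in the sources used here. Of the clusters 24646 had 1 gene symbol, 1795 had several (not used) and 26476 had none listed. Symbols were updated by gene ID to RefSeq GRCm38.p6 (663 updates), and the probe set with the highest mean stood for each gene, giving 24259 genes, dim ones included. No spot-level data were used.

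Groups were fitted in limma 3.58.1 under R 4.3.3 on all 9 arrays (6 residual and 4.69 prior degrees of freedom), with Benjamini-Hochberg adjustment over all genes. The fit was tested on simulated data for Rb KO against WT over 24259 genes, and recovered, of 50 genes each, 96% changed by -2, 100% by -1, 64% by -0.5 and 94% by 1, with 13 false calls. The simulated noise was normal, with the same SD for a gene in all groups, and only these genes were changed. In the data 24.4% of genes were called, and Rdh12 had SDs of 0.0344 in WT and 0.634 in Rb KO. The simulated rates therefore need not hold for the data. Plots used matplotlib 3.10.9 and Python 3.11.15. Where 1 group was not above background, its readings were raised to the negative control percentile to give the bound.

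The members, lists and motifs were chosen with earlier results of these data known. Named were the members, called genes of the retinoid list, the markers Nrl, Slc1a3, Best1, Tyr, Pmel and Rgr (others of that rule were not analysed here) and, for members above background in at least 3 arrays, the 3 genes of highest Pearson r. Abca8a, Clu, Aqp4, Sox9, Hes1, Zic1, Gnat1, Pde6a, Slc24a1, Rara and Rarb were chosen after their values were seen. Lists of rods, cones, Muller glia, pigment epithelium, lens, erythrocytes, vessels and choroid plexus markers were used. Of the lists not described above, 4 of 10 lens markers rose in DKO and 0 of 10 in Rb KO, beside 12.2% and 10.2% of all genes. Of 2 measured erythrocyte markers 0 passed in limma (0 at an unadjusted p under 0.05).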

Additional observations from a re-analysis of the deposited data

How the results depend on the processing

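The count of members called against WT stayed at 7 in DKO and ran from 5 to 7 in Rb KO when each array was left out, and 0 passed in DKO against Rb KO under every alternative (trend and robust variances, renewed quantile normalization, mean of probe sets, all probe sets, dim filter, 2 groups only, replicate block, control separation, each array left out). With the replicate number as a block 7 members were called in each mutant against WT, and 11 and 12 of the other retinoid genes, so that no count of members changed with the replicate block. The main fit did not treat arrays with the same number as paired. The correlations of their deviations from the group means ran from -0.162 to 0.145, and those of arrays with different numbers from -0.33 to 0.25. With few arrays a group, these values cannot decide whether the arrays were paired. The members tested dropped to 6 with the dim filter, of which 6 were called in Rb KO and 5 in DKO. Ttr met that filter through its 3 WT arrays alone, so its calls under it are no separate check. Control separation as a covariate gave 5 in Rb KO and 6 in DKO. Of the 28 other retinoid genes, 8 to 12 were called in Rb KO and 10 to 14 in DKO when each array was left out, and 9 and 8 with control separation. Of 450 member values under alternatives, 428 kept direction and side of the threshold, 16 lost the call, 2 gained it and 4 turned. The turns were small values that never passed: Rdh11 in DKO against WT (0.11 with control separation) and, between the mutants, Rdh12 (-0.075 without Rb KO replicate 2, -0.0727 without DKO replicate 2) and Rbp4 (0.0392 without Rb KO replicate 1). With each array left out, these ran from -0.075 to 0.516 for Rdh12 and from -0.0815 to 0.0392 for Rbp4. The cause was not tested. Over all genes, 4330 in place of 7113 were called in DKO against WT with the dim filter, which tests 7843 genes. In DKO against Rb KO, 322 in place of 617 were called in the fit to all probe sets, and 253 (without DKO replicate 3) to 859 (without WT replicate 2) when each array was left out. Readings near the negative controls limit Rdh5, Stra6, Rbp4 and the mutant levels of Ttr.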
